A study of Mus musculus with 4 samples.

Results

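The Slc25 genes encode the mitochondrial carrier family, and the deposited expression table was searched for every gene symbol made of Slc25a and a number. Of 23359 genes in the table, 47 were members. The cells were liver tumour-initiating stem-like cells of C57BL/6 mice, all grown with serum, EGF and dexamethasone. One culture received vehicle, one all-trans retinoic acid (ATRA, 5 µg/ml), one suberoylanilide hydroxamic acid (SAHA, 0.5 µg/ml), and one both compounds. ATRA is a ligand of nuclear retinoic acid receptors, and SAHA blocks histone deacetylase enzymes. Treatment lasted 16 hours, and for the vehicle culture no time was found in the labels. Each of the 4 groups had 1 RNA library, so no difference below has a replicate check, and no error or p-value is given.

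Mitochondrial carriers sit mostly in the inner mitochondrial membrane and exchange metabolites between the matrix and the cytosol. Among their cargoes are ADP and ATP, phosphate, citrate, malate, amino acids, iron, folate and coenzyme A. They are made in the cytosol, lack a cleaved presequence in most cases, and are inserted by the TIM22 complex. Several substrates have more than 1 carrier gene, and the partner genes differ in the tissues that use them. In liver, citrin (Slc25a13) and the ornithine carrier (Slc25a15) serve the urea cycle.

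Levels are given in FPKM, which by definition divides a gene's fragments by transcript length and by the library's mapped fragments. Levels can thus be compared between genes. The scaling used across these libraries was not found in the submitters' processing notes. Differences are given as log2 ratios, the difference in log2(FPKM + 1), a scale that understates differences of low genes. Folds are ratios of the FPKM values themselves. A gene was counted when its mean over the 4 libraries was at least 1 FPKM, and it stood past the 2-fold mark at a log2 ratio of 1 or more in either direction. By these rules 25 of the 47 members were counted, of 8616 counted genes in all. From the smallest steps in the values, 1 FPKM over 1 kilobase was estimated to stand for 96.3 to 99.2 fragments in these libraries, which put the least covered counted member in any library at about 90.9 fragments.

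Levels were taken for lists of cell type markers. None was a list of tumour-initiating or stem cell markers, so the labelled identity itself was not checked. None of 8 hepatocyte markers was counted, and their summed level was 0.202 FPKM with vehicle and at most 0.458 in any library. Of 8 mesenchymal markers 6 were counted. The list summed to 693 FPKM in vehicle cells, 543 after ATRA, 367 after SAHA and 399 after the combination. Most of each sum was Vim alone, at 562, 432, 319 and 362 FPKM in the same order. Against vehicle, 3 of the 6 were lower past the 2-fold mark with SAHA (16.0% of all counted genes) and 4 with both (12.6%). In these 2 comparisons 0 were higher, and the median log2 ratios of the 6 were -1.65 and -1.71. Col1a1 and Col3a1 were at most 0.0416 and 0.0465 FPKM. Macrophage markers had 1 of 6 counted, endothelial markers 2 of 6, lymphocyte markers 0 of 5 and erythroid markers 0 of 7. The part of these shifts in the results below was not tested, and in a bulk library fewer cells of a type and less RNA per cell cannot be told apart. A single row, the predicted gene Gm20594, held 18.0% of all FPKM in vehicle cells, 16.6% after ATRA, 33.9% after SAHA and 10.3% after the combination, and its part in the results was not tested. Over all counted genes the log2 ratio had a median of -0.12 for SAHA against vehicle and 0.14 for the combination against SAHA, and it lay within 0.04 of 0 in the other 3 comparisons.

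Together the 47 members summed to 227 FPKM in vehicle cells, 256.5 after ATRA, 311 after SAHA and 315 after the combination, which is 1.37-fold and 1.39-fold the vehicle sum in the last 2 libraries. With Gm20594 left out, the members made up 0.104%, 0.101%, 0.182% and 0.114% of the summed FPKM, and with it 0.0852%, 0.0843%, 0.121% and 0.102%. Slc25a4, Slc25a3 and Slc25a5 held 55.8% of the sum with vehicle and 52.6% with both, the lowest share. Members at 1 FPKM or more numbered 21, 21, 26 and 26 in the same order. In the same libraries the number of all genes at that level was lower with SAHA, at 7781 and 8002 against 8542 with vehicle.

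**Figure D1:**
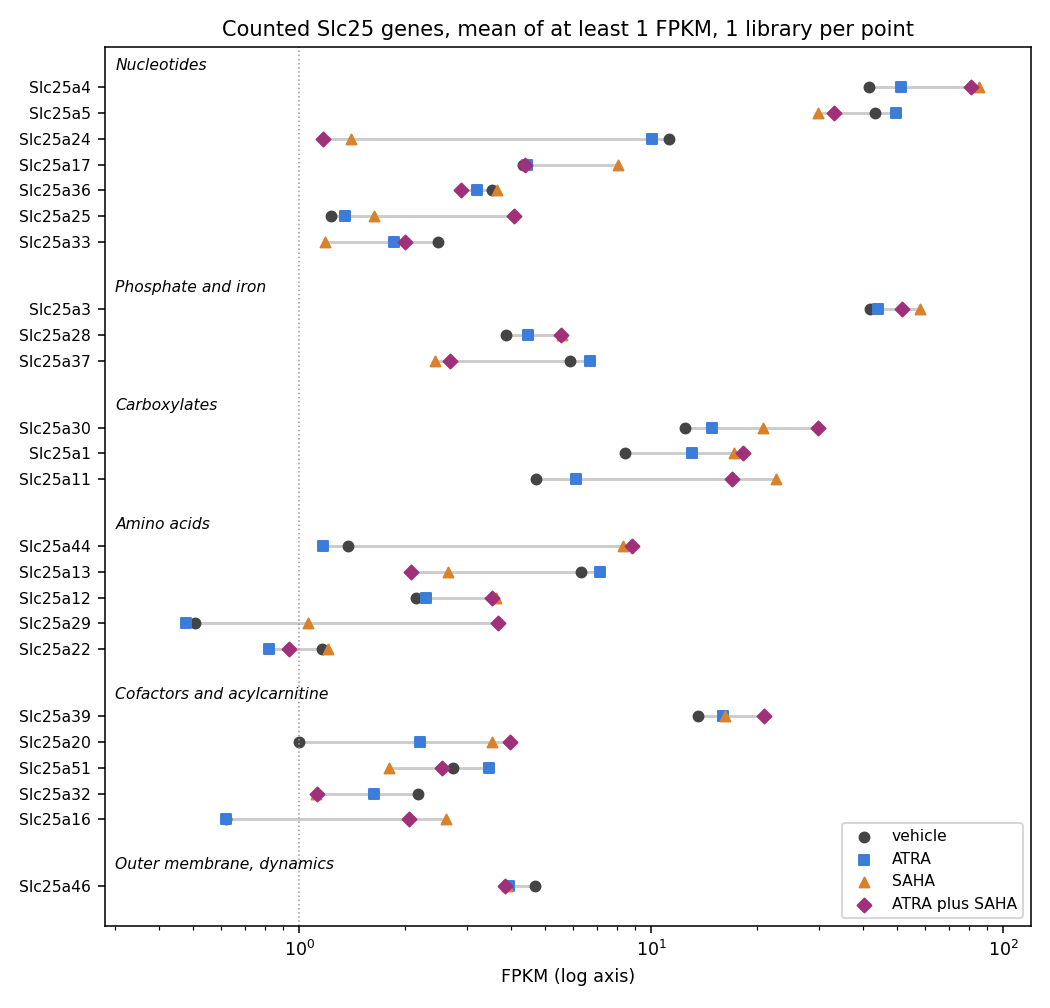
FPKM on a log axis for 24 of the 25 counted Slc25 genes, grouped by substrate, with 1 point per library and a grey line from the lowest to the highest library. Slc25a4, Slc25a3 and Slc25a5 lie highest, and Slc25a24, Slc25a44 and Slc25a29 span the widest ranges.

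No counted member passed the 2-fold mark with ATRA alone, SAHA placed 5 members higher and 3 lower, and the combination placed 7 higher and 2 lower. The background for ATRA was 0.917% of all counted genes higher and 1.20% lower. For SAHA it was 7.88% higher and 16.0% lower, against 20% and 12% of the members. With each library centred on its median ratio, the SAHA split was 6 higher and 1 lower for the members and 881 higher and 1157 lower for all genes, against 679 and 1381 without centring. For the combination against vehicle the background was 11.1% higher and 12.6% lower, and the members stood at 28% and 8%. The members' median log2 ratio was 0.07 with ATRA, 0.24 with SAHA and 0.43 with both, where all counted genes had -0.00, -0.12 and 0.04. The 3 comparisons share the single vehicle library.

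**Figure D2:**
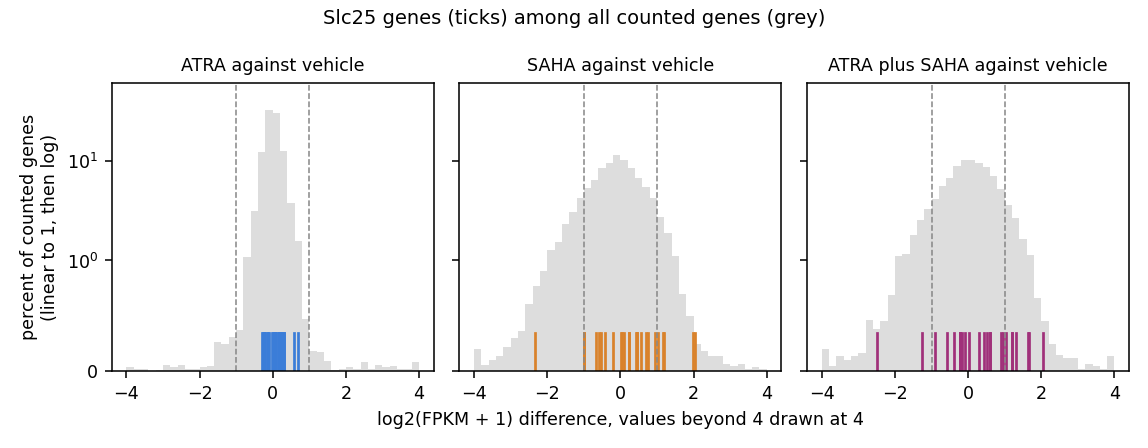
Distribution of log2(FPKM + 1) differences from vehicle for all 8616 counted genes (grey, percent of genes) with the 25 counted Slc25 genes as coloured ticks, and dashed lines at the 2-fold mark. No tick passes the mark with ATRA, and the ticks spread past it on both sides with SAHA and with both compounds.

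**Figure D3:**
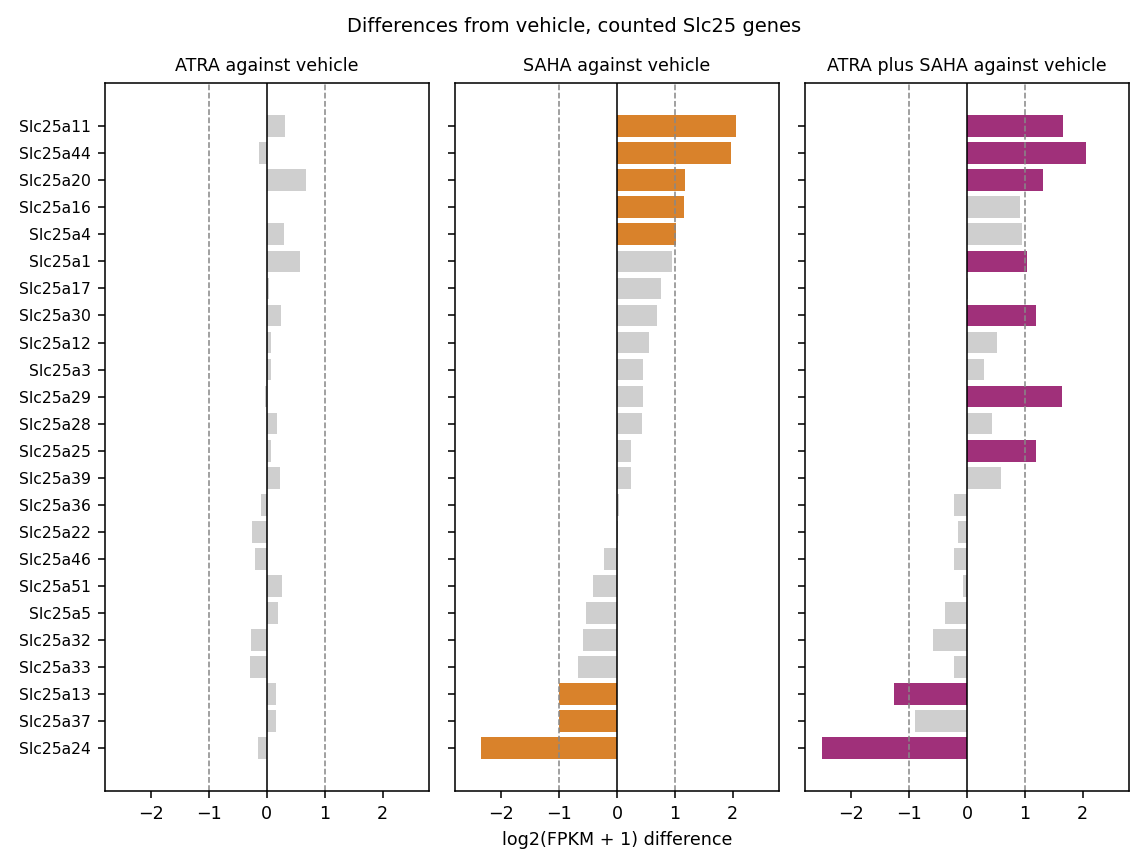
Log2(FPKM + 1) difference from vehicle for 24 of the 25 counted Slc25 genes in the 3 treated libraries, ordered by the SAHA difference, with coloured bars at or past the 2-fold mark (dashed). Slc25a11, Slc25a44 and Slc25a20 are past it on the higher side, and Slc25a24 and Slc25a13 on the lower side, with SAHA and with both.

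The carriers of nucleotides were the most abundant group, with 7 of 10 counted. With SAHA 1 of the 7 was past the mark on each side, and with both compounds again 1 on each side (background 7.88% higher and 16.0% lower with SAHA, 11.1% and 12.6% with both). Slc25a4 encodes ANT1, the ADP/ATP carrier typical of heart and muscle (chr8:46206797-46211284, minus strand; gene coordinates here are GENCODE M21 on mm10). It was at 41.5 FPKM in vehicle cells, 51.2 after ATRA, 85.3 after SAHA and 81.2 after the combination, the highest mean of the family. Its log2 ratios to vehicle were 0.30, 1.02 and 0.95, so the SAHA library lay just past the 2-fold mark and the combination just short of it. Slc25a5 encodes ANT2, the ADP/ATP carrier of dividing cells (chrX:36795651-36798807, plus strand). It was at 43.2, 49.5, 29.7 and 33.0 FPKM, and its log2 ratios of 0.19, -0.53 and -0.38 all stayed within the mark. The ratio of Slc25a4 to Slc25a5 within a library, which does not depend on the scaling between libraries, was 0.960 in vehicle cells, 1.03 after ATRA, 2.88 after SAHA and 2.46 after the combination. Their sum was 84.7, 101, 115 and 114 FPKM. The Slc25a5 transcript matched 8 other GENCODE genes over at least 100 bases at 90% identity or more. The longest match was Slc25a5-ps, over 1097 bases at 94.8% identity, so its reads may be split with copies and its level is uncertain. Matches of this kind to pseudogenes were also found for Slc25a3, Slc25a36, Slc25a40, Slc25a42 and Slc25a51, whose levels carry the same limit. Among counted members, Slc25a37 and Slc25a46 matched protein-coding transcripts of other genes at 100% identity. These were Gm16867 over 382 bases and B930094E09Rik over 374 bases, so the levels of Slc25a37 and Slc25a46 are uncertain as well. For Slc25a12, Slc25a32, Slc25a33 and Slc25a44 the longest matches were 247, 163, 281 and 323 bases, to non-coding transcripts of other genes. The levels of these genes carry the same limit.

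The ATP-Mg/phosphate carriers move adenine nucleotides in net amounts and respond to calcium. Slc25a24 (chr3:109123149-109168457, plus strand) had the lowest log2 ratio of the family. It was at 11.2 FPKM in vehicle cells, 10.0 after ATRA, 1.41 after SAHA and 1.17 after the combination, which is 7.99-fold lower with SAHA and 9.62-fold lower with both. The 2 libraries with SAHA lay together and far below the other 2. Slc25a25, a second carrier of this kind, was at 1.23, 1.35, 1.63 and 4.08 FPKM. The combination library was the high one, 3.33-fold above vehicle, with a log2 ratio of 1.19. The Slc25a25 locus in the table overlaps the row of Naif1, and the strand setting is not known, so this level is uncertain. The sum of Slc25a24 and Slc25a25 was 12.5 FPKM in vehicle cells and 3.04 after SAHA. Slc25a23, another carrier of this kind, was under the filter and at 0.115, 0.0996, 0.567 and 0.743 FPKM.

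The other counted nucleotide carriers stayed within the 2-fold mark on the log2(FPKM + 1) scale. Slc25a17, a peroxisomal carrier, was at 8.04 FPKM with SAHA and between 4.32 and 4.45 in the other 3 libraries. Slc25a33, a pyrimidine nucleotide carrier, was at 2.48 FPKM in vehicle cells, 1.86 after ATRA, 1.18 after SAHA and 1.99 after the combination. By FPKM it was 2.10-fold lower with SAHA than with vehicle. With a pseudocount of 0.1 FPKM that log2 ratio was -1.01, past the mark. Its partner Slc25a36 lay between 2.88 and 3.64 FPKM.

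Among the carriers of phosphate and iron, Slc25a3, which brings phosphate into the matrix for ATP synthesis, was at 41.9, 44.2, 57.9 and 51.7 FPKM with vehicle, ATRA, SAHA and both. Its log2 ratios of 0.07, 0.46 and 0.30 stayed within the mark. The mitoferrins import iron for haem and iron-sulfur clusters. Slc25a37, mitoferrin 1, the form of red cell precursors (chr14:69241848-69285112, minus strand), was at 5.89, 6.68, 2.43 and 2.68 FPKM. Both libraries with SAHA were low, with log2 ratios of -1.01 and -0.91. Slc25a28, mitoferrin 2, the form of other tissues, was at 3.86, 4.47, 5.57 and 5.54 FPKM. The ratio of Slc25a28 to Slc25a37 was 0.656, 0.669, 2.29 and 2.07. The erythroid markers summed to 0.448, 0.444, 2.54 and 1.62 FPKM, so they were higher in the 2 libraries in which mitoferrin 1 was lower. Most of that sum was Hba-a2 with SAHA (1.77 FPKM) and Hba-a1 with both (0.941), near-identical copies between which reads may be split, while Klf1 was between 0.347 and 0.653. Their part in the mitoferrin values was not tested.

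Of 9 members grouped as carboxylate carriers 3 were counted. Of these, 1 was past the mark with SAHA and 3 with both, all on the higher side (background 7.88% with SAHA and 11.1% with both). Slc25a11, the 2-oxoglutarate/malate carrier of the malate-aspartate shuttle (chr11:70644196-70647479, minus strand), had a log2 ratio of 2.05 with SAHA, the highest of the counted members on the log2(FPKM + 1) scale. By FPKM fold, and with a pseudocount of 0.1 FPKM, Slc25a44 stood above it (log2 ratios of 2.51 and 2.24). Slc25a11 was at 4.71 FPKM in vehicle cells, 6.12 after ATRA, 22.6 after SAHA and 17.0 after the combination, 4.81-fold and 3.61-fold above vehicle in the last 2. Slc25a1 exports citrate for fatty acid synthesis and was at 8.40, 13.0, 17.2 and 18.2 FPKM, with log2 ratios of 0.58, 0.95 and 1.03. Centring lowered its value for the combination to 0.995, short of the mark, and raised that for SAHA to 1.08, past it. Slc25a30, a relative of the uncoupling proteins, was at 12.5, 14.9, 20.7 and 29.8 FPKM, past the mark with both (log2 ratio 1.20). In all 3 genes the vehicle library was the lowest, ATRA the next, and the 2 libraries with SAHA the highest. Slc25a10, the dicarboxylate carrier, had a mean below 1 FPKM and was at 0.611, 0.858, 1.38 and 1.11 FPKM.

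Among the amino acid carriers, Slc25a44 and Slc25a13 stood on opposite sides. Slc25a44, a carrier of branched-chain amino acids (chr3:88410498-88425139, minus strand), was at 1.37 FPKM in vehicle cells, 1.17 after ATRA, 8.31 after SAHA and 8.83 after the combination. That is 6.06-fold and 6.44-fold above vehicle, with the 2 SAHA-containing libraries close to each other. Slc25a13, citrin, exports aspartate in exchange for glutamate (chr6:6041218-6217173, minus strand). It was at 6.32, 7.17, 2.64 and 2.07 FPKM, with log2 ratios of 0.16, -1.01 and -1.25. Slc25a12, called aralar, does the same exchange in brain and muscle and was at 2.14, 2.28, 3.63 and 3.52 FPKM. The ratio of Slc25a12 to Slc25a13 went from 0.339 with vehicle and 0.318 with ATRA to 1.37 with SAHA and 1.70 with both. Their sum was 8.46, 9.45, 6.27 and 5.59 FPKM. The mark passed by Slc25a13 and Slc25a37 with SAHA is a close call: after centring both stood at -0.88 and -0.89.

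Slc25a29, a carrier of basic amino acids such as arginine and lysine (chr12:108825873-108835883, minus strand), was the counted member past the mark between the combination and SAHA. It was at 0.505 FPKM in vehicle cells, 0.478 after ATRA, 1.06 after SAHA and 3.67 after the combination, 7.27-fold above vehicle and 3.46-fold above SAHA alone. Slc25a22, a glutamate carrier, lay between 0.820 and 1.20 FPKM in all 4 libraries. Slc25a15, the ornithine carrier of the urea cycle, was under the filter at 0.478, 0.504, 1.23 and 1.35 FPKM. Slc25a38, the glycine carrier used in haem synthesis, was also under it and was at most 0.660 FPKM.

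Cofactor and acylcarnitine carriers included the member with the highest log2 ratio after ATRA alone. Slc25a20, which imports acylcarnitines for fatty acid oxidation (chr9:108662088-108684641, plus strand), was at 0.995 FPKM in vehicle cells, 2.20 after ATRA, 3.53 after SAHA and 3.96 after the combination. Its log2 ratio with ATRA was 0.68, within the mark, although the FPKM ratio was 2.21-fold; with a pseudocount of 0.1 FPKM the log2 ratio was 1.07. With SAHA and with both it stood at 1.18 and 1.31. Slc25a16, a carrier linked to coenzyme A, was at 0.618, 0.621, 2.61 and 2.04 FPKM, with log2 ratios of 1.16 with SAHA, past the mark, and 0.91 with both, short of it. Its FPKM was 3.30-fold above vehicle with both, and with a pseudocount of 0.1 FPKM that log2 ratio was 1.58, past the mark. Slc25a39, a glutathione carrier, was at 13.6, 16.0, 16.2 and 20.9 FPKM. Its partner Slc25a40 was under the filter, at 0.957, 0.973, 0.456 and 0.466 FPKM. Slc25a32, which carries folate, was at 2.18, 1.63, 1.12 and 1.12 FPKM, and Slc25a51, the NAD carrier, at 2.73, 3.45, 1.80 and 2.55, all within the mark.

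**Figure D4:**
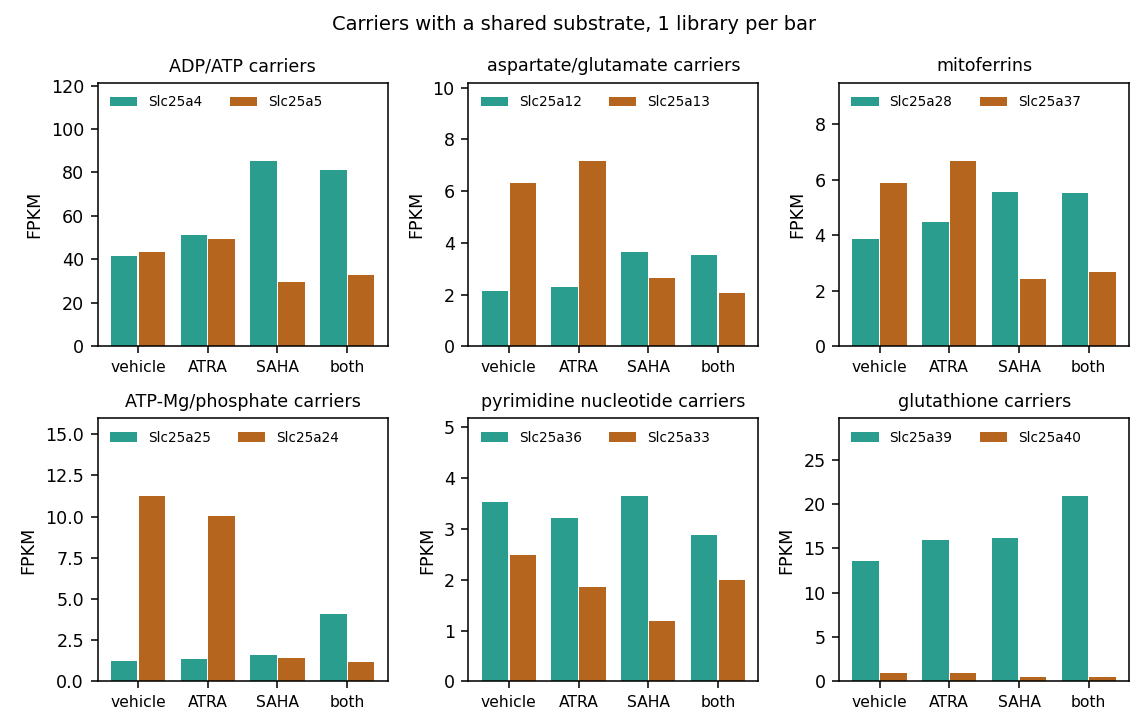
FPKM in the 4 libraries for 6 pairs of carriers with a shared substrate, 1 bar per library and gene, on axes from 0. The bars of Slc25a4 and Slc25a5, of Slc25a12 and Slc25a13 and of Slc25a28 and Slc25a37 exchange rank or draw apart in the 2 libraries with SAHA.

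For these 6 pairs the share of the first gene in the pair's sum was taken in each library. The pairs were put together, and the first gene of each picked, after the values were seen, so the common direction follows from that choice. Slc25a4 made up 49.0% of its pair with vehicle and 74.2% with SAHA, Slc25a12 25.3% and 57.8%, and Slc25a28 39.6% and 69.6%. Slc25a25 made up 9.84% and 53.8% of its pair with Slc25a24, Slc25a36 58.8% and 75.5% of its pair with Slc25a33, and Slc25a39 93.4% and 97.3% of its pair with Slc25a40. With both compounds the pyrimidine pair stood at 59.1%, near its vehicle share. Slc25a22, set beside the low second glutamate carrier Slc25a18, made up 98.5% with vehicle and 94.0% with SAHA, and Slc25a15, set beside the second ornithine carrier Slc25a2, 84.3% and 75.5%. With ATRA alone the first 6 shares were 50.9%, 24.2%, 40.1%, 11.9%, 63.3% and 94.3%.

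Of the remaining counted members, Slc25a46, an outer membrane member that takes part in mitochondrial dynamics, was between 3.83 and 4.67 FPKM. The 22 members under the filter comprised 20 that stayed below 1 FPKM in every library, plus Slc25a10 and Slc25a15. Slc25a43 was at 0.654 FPKM in vehicle cells and 0.0354 after SAHA, and Slc25a35 at 0.0224 and 0.499. Slc25a35 shares its locus with Rangrf and Slc25a2 with 60 other rows of the protocadherin cluster, so these 2 rows are uncertain. Slc25a31, the germ cell ADP/ATP carrier, Slc25a34 and Slc25a41 were listed at 0 with ATRA and were at most 0.0513 FPKM elsewhere. Between SAHA and vehicle, 11 of the 22 were at a ratio of at least 2-fold and 7 were lower by as much, where 23.4% and 21.3% of 10297 genes under the filter with values above 0 in both libraries stood. Few fragments lie behind many of these values. Among the others under the filter, the highest value in any library was 0.80 FPKM for Slc25a14, 0.290 for Slc25a26, 0.275 for Slc25a42, 0.275 for Slc25a45 and 0.261 for Slc25a48. It was 0.144 for Slc25a21, 0.0769 for Slc25a18, 0.0468 for Slc25a27 and 0.0371 for Slc25a53. Slc25a26 shares its locus with Lrig1 and Slc25a53 with Zcchc18.

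The combination was also set against each compound. Against ATRA, 4 counted members were higher (background 10.5%) and 3 lower (background 11.9%). The higher ones were Slc25a44 (log2 ratio 2.18), Slc25a29 (1.66), Slc25a11 (1.34) and Slc25a25 (1.11), and the lower ones Slc25a24 (-2.35), Slc25a13 (-1.41) and Slc25a37 (-1.06). Against SAHA, Slc25a29 alone was higher (1.18; background 3.04%) and 0 were lower (background 0.929%). Centred on the median, all counted genes in that comparison split into 191 higher and 111 lower in place of 262 and 80, while the members stayed at 1 and 0. The members' median there was 0.00 against 0.14 for all counted genes.

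Departure from additivity was taken as the combination's log2 ratio to vehicle minus the sum of those of ATRA and SAHA. It reached 1 or more in 1 counted member, Slc25a29 (1.21), and in 404 of all counted genes, 4.69%. The next highest were Slc25a25 (0.87) and Slc25a33 (0.74), and the lowest were Slc25a17 (-0.79) and Slc25a11 (-0.71). The members' median departure was -0.05, against 0.15 over all counted genes. Slc25a24 had a departure of -0.00, and its level was 1.41 FPKM with SAHA and 1.17 with both.

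In 4 cases a pair of members lay within 100 kilobases of each other in the genome. Slc25a54 ends 6461 bases before Slc25a24 on chromosome 3, and it was at 0.353, 0.243, 0.0677 and 0.0313 FPKM, low in the same 2 libraries as Slc25a24. Slc25a43 lies 18448 bases from Slc25a5 on the X chromosome and was likewise low in both libraries with SAHA. Slc25a41 and Slc25a23, 2056 bases apart on chromosome 17, were both at their lowest with ATRA. Slc25a29 and Slc25a47 lie on opposite strands of chromosome 12, 162 bases apart in GENCODE M21. The loci deposited with the FPKM values lie farther apart, with Slc25a29 ending at 108835876 and Slc25a47 starting at 108851129. Slc25a47 was at 0.206, 0.133, 0.0791 and 0.210 FPKM. One gene of each pair or both were under the filter, and the values of the genes under it rest on few fragments. Gene span and log2 ratio had a Spearman rho of -0.39 over the 25 counted members with ATRA, -0.37 with SAHA and -0.42 with both. Over 8100 counted genes with a span it was -0.17, -0.05 and -0.10, and the genes of 1 library share its depth and composition.

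RefSeq promoter windows on GRCm38 (mm10) were matched by symbol for 36 of the 47 members and 19 of the 25 counted ones. Those with no entry included Slc25a2, Slc25a26, Slc25a27, Slc25a32, Slc25a35, Slc25a37, Slc25a41, Slc25a44, Slc25a46 and Slc25a51. The 250 bases before the start were searched on both strands for 10 motifs, and the 3 found in the highest number of the 36 members are described first: the GC box GGGCGG, the CCAAT box CCAAT and the E-box CACGTG. The choice of these 3 was made after the shares were seen. The GC box was in 15 of the 19 counted members, 78.9%, and in 67.2% of 6320 counted genes. The CCAAT box was in 63.2% of these members and 42.3% of the genes, and the E-box in 21.1% and 10.5%. Of the other 7 motifs, the ETS motif CCGGAAG was in 21.1% of the counted members and 18.4% of the counted genes, and the cyclic AMP response element TGACGTCA in 10.5% and 3.35%. The remaining 5 were in 0 of the 19 counted members. In the counted genes the TATA box TATAAA was in 7.37%, the NRF1 core GCATGCGC in 5.63%, and the ERR half-site AAGGTCA in 2.83%. The CARE motif TGATGCAA was in 0.807% and the ERSE motif, which contains the CCAAT box, in 0.142%. Median GC content was 62.8% in the counted members and 60.4% in the counted genes. A match is a description of letters and not a binding site.

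Windows of 5 members are printed 5′ to 3′ with these 3 motifs in capitals. They were picked after the values were seen. Slc25a12 and Slc25a13 are shown because they share a substrate and their ratio differed between libraries, Slc25a24 as the member with the lowest ratio, and Slc25a16 and Slc25a30 as members past the mark on the higher side, the first with SAHA and the second with both. They lie at chr2:71367756-71368005 (minus strand), chr6:6217174-6217423 (minus), chr3:109122899-109123148 (plus), chr10:62920383-62920632 (plus) and chr14:75787038-75787287 (minus).
Slc25a12: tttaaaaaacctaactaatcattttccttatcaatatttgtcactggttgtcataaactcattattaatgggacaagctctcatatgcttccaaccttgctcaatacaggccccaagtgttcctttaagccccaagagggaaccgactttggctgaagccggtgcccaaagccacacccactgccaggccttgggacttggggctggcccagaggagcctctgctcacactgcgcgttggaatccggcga
Slc25a13: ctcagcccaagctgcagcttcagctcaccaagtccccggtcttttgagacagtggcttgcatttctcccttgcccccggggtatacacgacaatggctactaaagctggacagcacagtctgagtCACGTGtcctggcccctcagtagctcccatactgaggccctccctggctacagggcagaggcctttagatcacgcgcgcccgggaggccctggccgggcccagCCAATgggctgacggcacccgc
Slc25a24: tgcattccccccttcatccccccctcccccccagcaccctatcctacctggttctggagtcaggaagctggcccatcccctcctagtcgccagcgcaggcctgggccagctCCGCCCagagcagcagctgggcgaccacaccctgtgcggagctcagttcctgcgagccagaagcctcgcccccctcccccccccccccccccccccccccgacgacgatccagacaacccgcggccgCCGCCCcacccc
Slc25a16: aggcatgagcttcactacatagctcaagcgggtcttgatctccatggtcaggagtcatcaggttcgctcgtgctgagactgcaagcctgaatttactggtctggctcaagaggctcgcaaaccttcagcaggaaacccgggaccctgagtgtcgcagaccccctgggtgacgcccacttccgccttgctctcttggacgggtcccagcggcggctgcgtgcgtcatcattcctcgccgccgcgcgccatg
Slc25a30: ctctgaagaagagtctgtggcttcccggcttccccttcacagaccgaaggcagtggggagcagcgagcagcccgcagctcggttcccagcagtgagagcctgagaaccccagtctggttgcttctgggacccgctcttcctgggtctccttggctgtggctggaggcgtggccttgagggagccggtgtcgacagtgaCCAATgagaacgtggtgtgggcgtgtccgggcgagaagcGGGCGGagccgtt
The Slc25a13 window held 1 E-box and 1 CCAAT box, and the Slc25a24 window 2 GC boxes. The Slc25a30 window held 1 GC box and 1 CCAAT box, and the Slc25a12 and Slc25a16 windows held none of the 10 motifs. GC content was 49.6% for Slc25a12 and 62.8% for Slc25a13.

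Genes that work with the carriers were taken from lists put together with earlier results of these data known. With ATRA alone, 0 counted genes of these lists passed the mark in either direction. Of 6 mitochondrial folate enzymes, which use the folate brought in by Slc25a32, 4 were lower (background 16.0%) and 0 higher (7.88%) with SAHA, with a median log2 ratio of -1.98 (all counted genes -0.12). Mthfd1l was at 8.83 FPKM in vehicle cells, 10.5 after ATRA, 0.779 after SAHA and 0.864 after the combination, and Shmt2 at 37.2, 39.4, 6.46 and 9.93. Slc25a32 itself stood at -0.58 with SAHA and -0.58 with both, short of the mark.

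Enzymes that act on the cargo of the carboxylate carriers had a median of 0.29 with SAHA and 0.49 with both, with 2 of 14 (background 7.88%) and 3 of 14 (11.1%) higher and 0 lower (16.0% and 12.6%). Mdh1, the cytosolic malate dehydrogenase of the shuttle that Slc25a11 serves, was at 7.39, 8.80, 20.8 and 18.0 FPKM. Mdh2, its mitochondrial partner, was at 14.5, 17.3, 36.7 and 49.7. The aminotransferases of the same shuttle, named after their values were seen, did not share this order: Got1 was at 13.1, 11.9, 9.28 and 26.6 FPKM, and Got2 between 21.3 and 23.1. Among enzymes of haem and iron-sulfur cluster synthesis, which use the iron brought in by mitoferrins, 3 of 12 were higher and 1 lower with SAHA (background 7.88% and 16.0%), and 3 were higher and 0 lower with both (11.1% and 12.6%). Iscu, the scaffold for iron-sulfur clusters, was at 5.91, 6.42, 19.9 and 27.2 FPKM, and Urod, a haem synthesis enzyme, at 3.79, 4.68, 17.7 and 15.4. The lower one with SAHA was Cpox, another haem synthesis enzyme, at 6.25, 6.39, 2.37 and 3.50 FPKM.

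Of 13 counted carriers of other families, 2 were higher and 1 lower with SAHA (background 7.88% and 16.0%), and 4 were higher and 1 lower with both (11.1% and 12.6%). The list is too short to place these shares above or below the background. Mpc1, a subunit of the pyruvate carrier, was at 6.60, 6.26, 16.9 and 20.5 FPKM. In the outer membrane, 1 of 4 counted genes was lower with SAHA (background 16.0%) and 0 with both (12.6%): Tspo was at 16.7, 16.8, 4.51 and 8.80 FPKM, while the channel gene Vdac2 stayed between 37.6 and 43.1.

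The import machinery for carriers had 2 of 15 counted genes lower and 0 higher with SAHA, and the same counts with both. The lower share is near the background of 16.0% and 12.6%. The 2 were Timm10, a chaperone of the intermembrane space that escorts carriers, at 6.69, 5.30, 2.35 and 2.70 FPKM, and Timm8a1 at 11.2, 9.03, 4.40 and 4.21. Of 13 genes of presequence import, 1 was higher and 1 lower with SAHA (background 7.88% and 16.0%), and 3 were higher and 0 lower with both (11.1% and 12.6%). Hspa9, the matrix chaperone that pulls proteins in, was at 74.6, 73.5, 19.2 and 39.0 FPKM, and Grpel1, its exchange factor, at 3.04, 3.03, 9.41 and 11.8. Of 9 counted regulators of mitochondrial biogenesis, 1 was higher and 1 lower with SAHA (background 7.88% and 16.0%), and 1 was higher and 1 lower with both (11.1% and 12.6%). The higher gene differed: with SAHA it was Tfb2m, a mitochondrial transcription factor, at 2.05, 1.80, 5.53 and 4.31 FPKM (log2 ratios of 1.10 with SAHA and 0.80 with both). With both compounds it was Esrra, which encodes a nuclear receptor of oxidative metabolism genes, at 2.29, 2.99, 5.06 and 7.98 FPKM (0.88 and 1.45). Pprc1, a coactivator gene, was the lower one in each, at 2.20, 1.39, 0.449 and 0.537 FPKM.

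**Figure D5:**
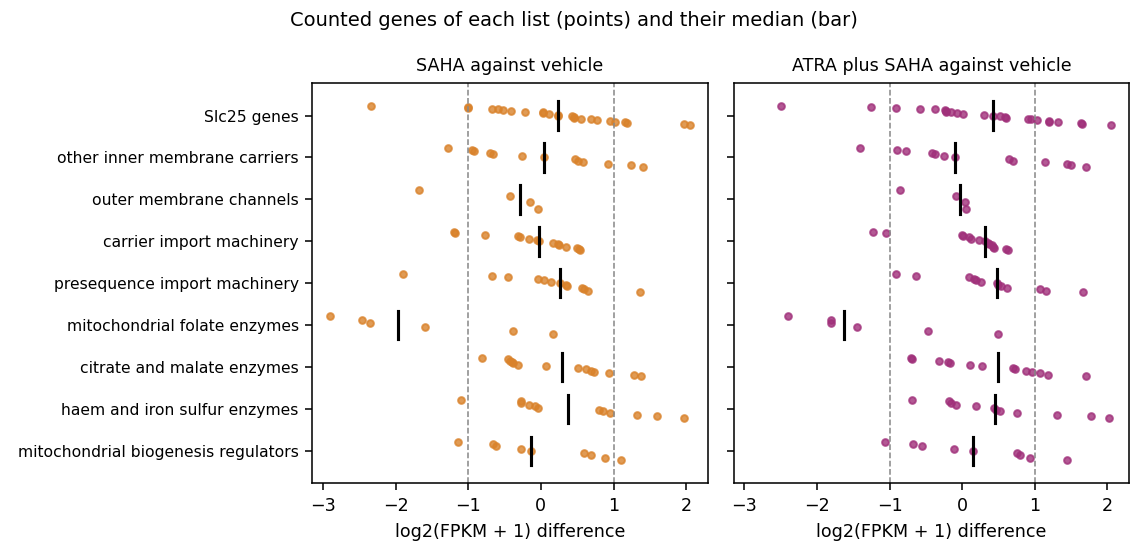
Log2(FPKM + 1) difference from vehicle with SAHA (left) and with both compounds (right) for the counted genes of the Slc25 family and 8 related lists, with 1 point per gene and a bar at each median. The folate enzymes lie to the left in both panels, at medians of -1.98 and -1.63, and the Slc25 genes spread to both sides.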

How the data were processed

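Total RNA was extracted, treated with DNase and cleared of ribosomal RNA, per the labels' protocols. The submitters' processing notes name Trimmomatic 0.32 for trimming, Cuffdiff for expression and the build mm10. Aligner, annotation, strand setting and scaling across libraries were not found in those notes. The authors deposited FPKM values in a single table, with a column for each library per the file headers. Counts of reads were not used, so no counting interval is given.

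Values were taken as log2(FPKM + 1) over genes averaging 1 FPKM or more. Because each group had 1 library there was no test, and a log2 difference of 1 or more marked a gene as higher or lower. Fragments per FPKM were estimated from the spacing of low values in genes with 1 transcript of 1000 to 4000 bases. Members, lists and rules were chosen with earlier results of these data known. Values in every library are given for members past the mark in any of the 5 comparisons and the 8 of highest mean. Other members are given by value or range. Each list names at most 3 genes, with 2 exceptions. To the carboxylate enzymes Got1 and Got2 were added, and the family relatives with other symbols are all named. Similar copies were searched with BLAST+ 2.17.0 on GENCODE M21 transcripts. Alternatives were a pseudocount of 0.1 FPKM, no filter, a mean of at least 5 FPKM and centring on the median ratio. One counted member enters the counts, sums and medians but is not reported here by name.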

Additional observations from a re-analysis of the deposited data

How the results depend on the processing

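With a mean of at least 5 FPKM, 9 members remained. Of these, 2 were higher and 1 lower with SAHA (all genes at this setting 11.4% and 20.1%), 3 higher and 1 lower with both against vehicle (17.0% and 13.8%), 1 higher and 1 lower with both against ATRA (14.7% and 14.2%), and 0 higher with both against SAHA (5.58%). With a pseudocount of 0.1 FPKM, 1 of 25 members was higher with ATRA (all genes 1.51%), 7 with both against ATRA (16.4%) and 2 with both against SAHA (5.69%). Centring left 1 member lower with SAHA in place of 3. The other member counts under these 3 settings, and all member counts with no filter on low values, stayed within 1.5 times those given. The counts over all genes moved further: with the pseudocount of 0.1, genes higher numbered 130 in place of 79 with ATRA, 1099 in place of 679 with SAHA, and 490 in place of 262 with both against SAHA. With no filter, 3.03% of all genes were higher with SAHA in place of 7.88%. Over the 25 counted members and 5 comparisons, the pseudocount of 0.1 brought 10 values past the mark, and centring brought 1 past it and 3 short of it. No member past the mark changed direction under any of the 4 settings. No paired analysis was possible because each group had 1 library, and no library could be left out.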

Other observations

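Close relatives of the family that carry other symbols stayed within the 2-fold mark in the 5 comparisons. Of 5 such genes, Ucp2, Mtch1 and Mtch2 were counted. Mtch1, an outer membrane relative, was at 7.86 FPKM in vehicle cells, 8.38 after ATRA, 7.25 after SAHA and 8.73 after the combination, and Mtch2, which takes part in outer membrane protein insertion, at 4.96, 4.95, 3.58 and 4.83. Ucp2, an uncoupling protein gene, was at 2.21, 2.38, 2.10 and 1.51 FPKM. Ucp1, the uncoupling protein of brown fat, was at most 0.00605 FPKM and Ucp3 at most 0.336.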
